A study of Torulaspora delbrueckii with 17 samples.

Results

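The data describe where 2 chromatin proteins were found at the tips of chromosomes in the budding yeast Torulaspora delbrueckii. A peak was included if its midpoint lay less than 5 kb from either end of chromosomes 1 to 7, and 281 of the 5717 peaks in 15 lists met this rule. The lists held 2591 peaks on those 7 chromosomes, of which 220 had midpoints 5 to 20 kb from an end and 2090 lay farther in. Ends are named by chromosome number and side, 1L being the left end of chromosome 1. Positions are given as the distance from the end of the assembled chromosome. Whether the assembly reaches the telomeric repeats was not tested.

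Chromatin immunoprecipitation with sequencing was done through a MYC tag on Orc1 or a V5 tag on Kos3. Orc1 is a subunit of the origin recognition complex, which marks replication origins. Kos3 belongs to the family of Sir1, a silencing protein of Saccharomyces cerevisiae, where the Sir1 protein is brought to silencers by the BAH domain of Orc1. The BAH domain is a module that binds nucleosomes. Sir2 is a histone deacetylase, and in S. cerevisiae its action at chromosome tips, together with the Orc1 paralogue Sir3, silences subtelomeric genes. T. delbrueckii branched off before the genome duplication from which Sir3 arose.

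Orc1-MYC libraries came from 5 mutant and 2 wild-type strains. The sir2 group had 2 libraries of strain LRY3206, the kos3 group 1 library of LRY3205, the orc1bah group 2 libraries of LRY3212, and the orc1P179A group 1 library each of LRY3215 and LRY3216. Of the 2 wild-type Orc1 libraries, the first came from LRY3204, which the labels give without a Kos3 tag, and the second from LRY3211, which carries Kos3-V5. The orc1bah and orc1P179A strains also carry Kos3-V5 per the labels, and all Orc1 libraries carry the MYC tag. Kos3-V5 was precipitated in 2 orc1bah libraries of LRY3212, 1 orc1P179A library each of LRY3215 and LRY3216, and 2 wild-type libraries of LRY3211. The labels name no further genotype. The series calls the libraries of a pair technical replicates, so the SD within 1 strain measures a technical spread. There was 1 kos3 library and hence no SD. The 2 genomic input libraries are of strain JRY10156 per the labels, which is none of the precipitated strains. They have no peak list analysed here, and no peak background in them or in an untagged strain can be given.

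Peaks were called for each library on its own. The lists hold no read counts, so depth is unknown and limits the precision of every value in a way that cannot be stated. Lists on chromosomes 1 to 7 held 223 to 274 peaks for Orc1 and 28 to 100 for Kos3. The second wild-type Orc1 library stood apart from the first. Its peaks covered 348.6 kb of chromosomes 1 to 7, against 259.8 kb in the first and 191.4 to 222.9 kb in the mutants. At the tips it had long unbroken peaks whose midpoints lay too far in to count at 3 ends, reaching 10.3 kb inward at 1R, 16.9 kb at 2L and 14.3 kb at 7L. In all, 18 peaks reached into the outermost 5 kb without being counted. For this reason the length covered by any peak within the 14 windows of 5 kb, 70 kb in all, was used beside the number of peaks.

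Orc1 covered less of the chromosome tips in every mutant than in wild type. Orc1 peaks covered 19.0 and 16.2 kb of the 70 kb in the orc1P179A libraries, 15.2 and 15.8 kb in orc1bah, 14.2 and 13.6 kb in sir2 and 18.7 kb in kos3, against 33.0 and 55.8 kb in wild type. All 7 mutant libraries thus lay below both wild-type libraries, and the 7 mutant values were closer to each other than the 2 wild-type values were. The ratio to the wild-type mean was 0.396 ± 0.151 for orc1P179A, 0.348 ± 0.127 for orc1bah, 0.312 ± 0.114 for sir2 and 0.422 ± 0.153 for kos3 (SD propagated from the libraries). Most of each SD comes from the wild-type pair.

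**Figure D1:**
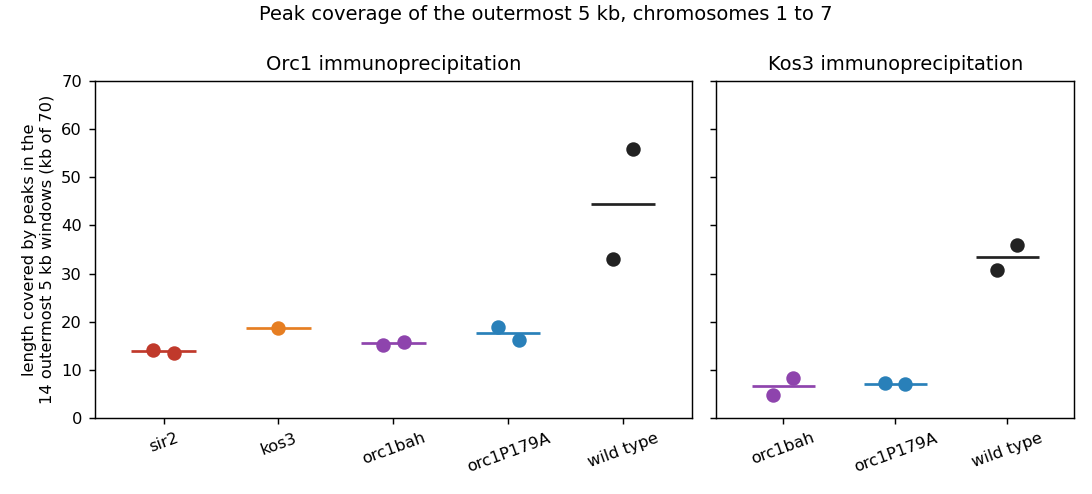
Length of the 14 outermost 5 kb windows covered by peaks (kb of 70, vertical axis), with 1 point for each library and a line at the group mean, for Orc1 on the left and Kos3 on the right. Mutant Orc1 libraries lie between 13.6 and 19.0 kb and mutant Kos3 libraries between 4.75 and 8.33 kb, all below the wild-type libraries of the same protein.

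Taken by strain, the 5 mutant strains averaged 16.6 ± 2.19 kb and the 2 wild-type strains 44.4 ± 16.1 kb. The difference was −27.8 kb (exact permutation test over strains, two-sided, p = 0.0476, the smallest p that the 21 regroupings can give). All 5 mutant strains lay below both wild-type strains. This test pools 4 genotypes, and the orc1P179A strains share theirs. Covered length was taken up with the long wild-type peaks already seen, and peak numbers overlapped for Orc1. The p is therefore not that of a measure fixed beforehand. Without the second wild-type library the difference was −16.4 kb and without the first −39.2 kb, and in both cases the exact test could not go below p = 0.167. With 2 libraries against 2, no exact two-sided test can go below p = 0.333, so single mutants carry no p.

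The libraries were called against 2 different inputs per the file names. The sir2, kos3 and first wild-type lists share 1 input and the rest share the other. The regroupings of the strain test did not keep these inputs apart. Each input goes with 1 wild-type strain, so regrouping within inputs would leave fewer regroupings and a smallest p above 0.05. Within the same input, the first wild-type library gave ratios of covered length of 0.568 in kos3 and 0.420 in sir2. The second gave 0.315 in orc1P179A and 0.277 in orc1bah. Every ratio stayed below 1. The pooled ratios therefore do not rank the mutants, because each wild-type library shares its input with a different pair of mutants. In the outermost 2.5 kb alone the orc1bah ratio was 0.532, more than 1.5 times that of the 5 kb window. Over the outermost 10 kb the orc1bah ratio was 0.274.

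Kos3 also covered less of the tips in both orc1 mutants than in wild type. Kos3 peaks covered 7.28 and 7.01 kb in orc1P179A and 4.75 and 8.33 kb in orc1bah, against 30.8 and 35.9 kb in wild type. All 4 mutant libraries lay below both wild-type libraries. The ratio to wild type was 0.196 ± 0.0789 for orc1bah and 0.214 ± 0.0237 for orc1P179A, and all 6 libraries share 1 input. Whether these ratios differ from those of Orc1 was not tested. With only peaks of a −log10 q-value of at least 10, the ratios were 0.0811 and 0.0648, and at a minimum of 5 the orc1P179A ratio was 0.132.

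In wild type, both proteins were found at the tips. Kos3 peaks covered 30.8 and 35.9 kb and Orc1 peaks 33.0 and 55.8 kb, so the ranges overlapped and the ratio was 0.750 ± 0.284. Against the Orc1 library of LRY3211 alone, which shares strain and input with the Kos3 libraries, the ratio was 0.597. Against that of LRY3204 alone, called with the other input, it was 1.01. With the 28 strongest peaks of each list, the ratio to both Orc1 libraries was 1.61. That cut keeps a smaller part of the Orc1 lists, with 266 and 274 peaks, than of the Kos3 lists, with 93 and 100. It therefore cannot show which protein covered more. The direction thus depended on the library and on the number of peaks.

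Peak number told less than covered length, because a broad peak counts once and its fragments count several times. Orc1 lists held 22 and 17 such peaks in orc1P179A, 16 and 16 in orc1bah, 17 and 17 in sir2 and 17 in kos3, against 21 and 17 in wild type. Thus the numbers overlapped for Orc1. Kos3 lists held 10 and 16 in orc1bah and 16 and 18 in orc1P179A, against 28 and 33 in wild type, with no overlap. Of the Orc1 peaks on chromosomes 1 to 7, the tips held 6.44% to 9.57% in the mutants, against 7.89% and 6.20% in wild type. Of the Kos3 peaks they held 35.6% to 43.2% in the mutants, against 30.1% and 33.0% in wild type. The mutant Kos3 lists were shorter as a whole, with 28 to 47 peaks against 93 and 100. The Kos3 numbers alone thus show no loss particular to the tips. Bases covered by any peak inside the 14 windows were also set against all those a list covered on chromosomes 1 to 7. This share was 6.26% to 9.74% for Orc1 in the mutants, against 12.7% and 16.0% in wild type. It was 34.6% to 42.9% for Kos3 in the mutants, against 42.6% and 41.2% in wild type.

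The tips were set beside all 1684 windows of 5 kb on chromosomes 1 to 7. A peak midpoint was found in every Orc1 library of orc1P179A in 8 of the 14 outermost windows, against 11.2% of all windows. It was 8 outermost windows in orc1bah against 11.5% of all, 7 in sir2 against 11.6%, 9 in kos3 against 13.8% and 8 in wild type against 11.9%. For Kos3 it was 6 in orc1bah against 1.13% of all, 7 in orc1P179A against 1.01%, and 12 in wild type against 2.02%. Counting any overlap in both libraries, wild-type Kos3 held 12 of the 14 tips against 2.49% of all windows, and wild-type Orc1 11 against 14.8%. The midpoint count of wild-type Orc1 lacks 1R, 2L and 7L, where the long peaks of the second library had midpoints beyond 5 kb.

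Of the 8 outermost windows with a midpoint in both wild-type Orc1 libraries, 5 had one in every sir2 library, against 88.6% of all such windows. In kos3 it was 6 of 8 against 94.5%, in orc1bah 6 of 8 against 87.6% and in orc1P179A 6 of 8 against 88.1%. For Kos3, 6 of 12 kept one in orc1bah against 44.1% of all, and 7 of 12 in orc1P179A against 47.1%. The Kos3 shares are near those of all windows, and with so few windows the Orc1 shares are given as counts only. The 8 Orc1 windows lack 1R, 2L and 7L by the midpoint rule alone. Every mutant Orc1 library had a midpoint at 1R and at 7L, so the Orc1 counts leave out ends that the mutants held.

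Against windows anywhere on chromosomes 1 to 7, covered length set the tips apart more clearly for Orc1 than for Kos3. At all 11 ends covered in both wild-type Orc1 libraries, every mutant library was covered over less than both. Across chromosomes 1 to 7 this held for 48 of 249 such windows, or 19.3%, the 11 ends included. For Kos3 it held at all 12 ends covered in both wild-type libraries, but also in 90.5% of all 42 such windows. The Kos3 count at the tips is thus near that of Kos3 windows anywhere. The lower Orc1 cover in the mutants was not confined to the outermost 5 kb. From 5 to 7.5 kb Orc1 peaks covered 19.2% and 55.1% of bases in wild type, against 3.27% to 8.75% in the mutant libraries. From 15 to 20 kb they covered 9.68% and 20.1% in wild type, against 3.35% to 5.94% in the mutant libraries. Whether the Orc1 loss at the tips differs from that just inward was not tested.

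**Figure D2:**
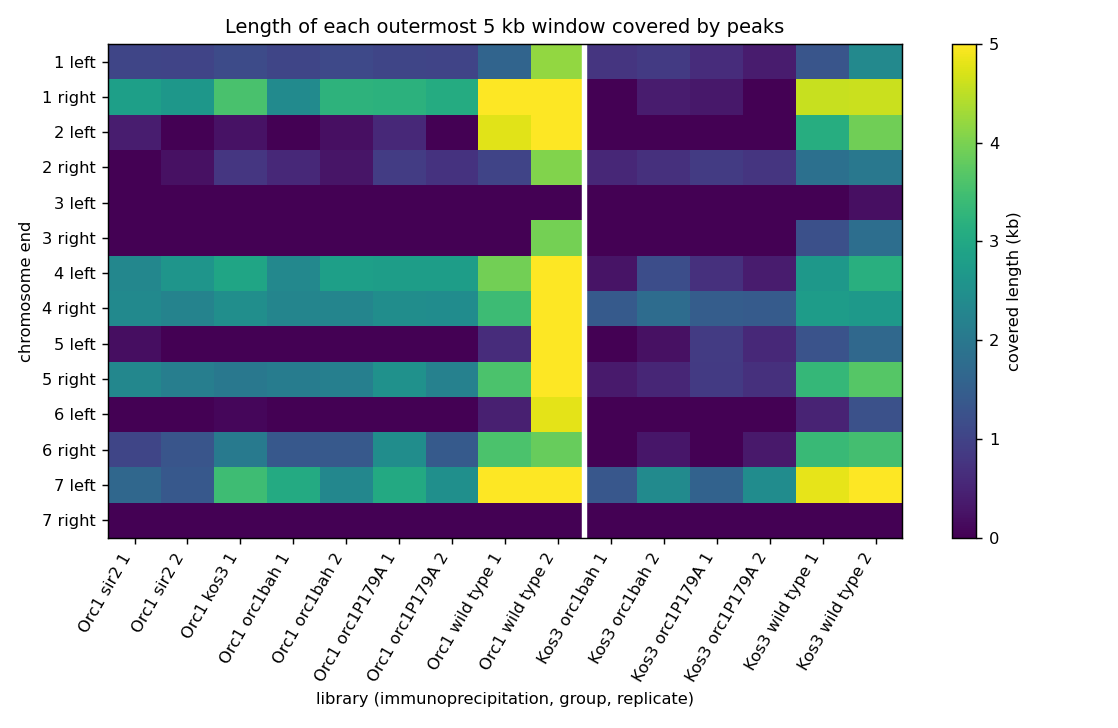
Covered length (colour, 0 to 5 kb) in the outermost 5 kb of each chromosome end (vertical) for each library (horizontal), with Orc1 left and Kos3 right of the white line and mutants left of wild type. Ends 3L and 7R are almost empty throughout, and the right-hand columns of each block are the brightest.

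Within the outermost 5 kb, Orc1 peaks covered fewer bases between 4 and 5 kb from the tip than in the outermost 1 kb, in every mutant and in wild type. In the outermost 1 kb, Orc1 peaks covered 49.1% of the bases in orc1P179A, 44.8% in orc1bah, 40.01% in sir2 and 52.3% in kos3, against 76.5% in wild type (68.1% and 84.9% in the libraries). Between 4 and 5 kb they covered 6.69%, 4.80%, 3.38% and 7.26% in the same order of mutants, against 51.3% in wild type (28.7% and 73.8%). At 50 to 100 kb the mutants had 2.69% to 3.33% and wild type 5.30%. In the mutants, Orc1 coverage between 4 and 5 kb was therefore within a few percentage points of that far from the tips. In wild type it was not. Farther in, the wild-type libraries parted. From 10 to 15 kb they covered 4.03% and 28.7%, against 4.17% and 6.43% at 50 to 100 kb. These values describe bins that share libraries, with no test.

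In the outermost 1 kb Kos3 covered 23.5% in orc1bah and 20.01% in orc1P179A, against 68.0% in wild type. Between 3 and 4 kb it covered 0.729% in orc1bah and 1.69% in orc1P179A, against 29.2% in wild type. Between 4 and 5 kb it covered 2.49% in orc1bah and 4.39% in orc1P179A, against 26.5% in wild type. From 7.5 to 15 kb no mutant Kos3 list had a peak, while wild type covered 4.92% from 7.5 to 10 kb and 5.97% from 10 to 15 kb.

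**Figure D3:**
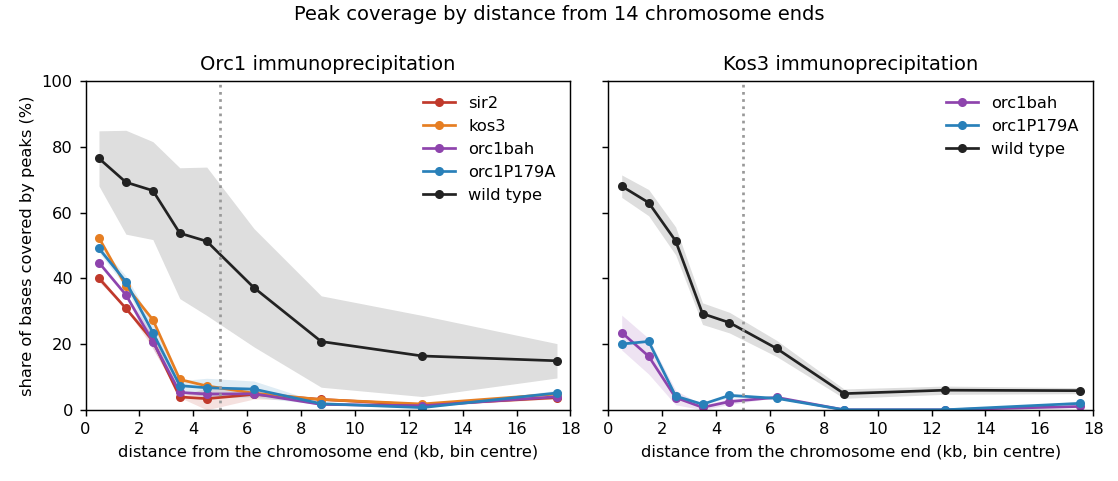
Share of bases covered by peaks (%, vertical) against distance from the end (kb, bin centres, over 14 ends) for each group, with shading from the lowest to the highest library. Wild type lies above every mutant in each bin to 20 kb, and the mutant Orc1 lines fall below 10% beyond 3 kb.

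The ends did not behave alike. Member peaks were found in all 15 lists at 4 ends, 1L, 4L, 4R and 5R, and 7L was covered in all 15 as well. Adding 1R and 6R gives the 7 ends that all 9 Orc1 lists covered. The mean covered length of the 7 mutant Orc1 libraries was 60% of wild type at 1R, 59.4% at 4L, 56.0% at 4R, 51.4% at 5R, 49.7% at 7L and 42.6% at 6R. It was 36.6% at 1L, 19.5% at 2R, 4.22% at 2L, 0.903% at 5L and 0.522% at 6L. Against the first wild-type library alone, an alternative chosen after seeing the data, it was 66.0% at 1L, 48.1% at 2R, 4.03% at 5L and 3.05% at 6L, each more than 1.5 times the share above. At the other ends with Orc1 in that library it moved by less, and the order changed, with 68.9% at 4R, 67.4% at 4L, 61.6% at 5R and 60.1% at 1R. Against the second alone it was 12.2% at 2R, 0.509% at 5L and 0.285% at 6L, and it moved by less at the rest. Covered length cannot exceed 5 kb at an end, and the second library reached this at 1R, 2L, 4L, 4R, 5L, 5R and 7L. The first had 4.98 kb at 1R and 5 kb at 7L, so the shares there could hardly differ between the 2 libraries. For Kos3 the order was another: 55.5% at 4R, 39.6% at 7L, 37.7% at 2R, 35.9% at 1L, 27.95% at 5L, 21.8% at 4L, 17.4% at 5R, 4.57% at 6R and 3.84% at 1R, with nothing left at 2L, 3R and 6L. Against either wild-type Kos3 library alone none of these shares moved by more than 1.5 times. These orders rest on 1 window each and were not tested.

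The summit is the base of highest signal in a peak, and the fold is the authors' enrichment over background there. The rank of a fold is its place among the peaks of its own list on chromosomes 1 to 7, and folds are compared within a list only. Gene names come from the RefSeq table of assembly ASM24337v1, and names of the form TDEL0A00100 carry no known function here.

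At 1R, beyond the outermost annotated gene TDEL0A08060, lay one of the strongest Orc1 sites of all. Orc1 peaks covered 3.22 and 3.08 kb of the 5 kb in orc1P179A, 2.40 and 3.23 kb in orc1bah, 2.83 and 2.65 kb in sir2 and 3.56 kb in kos3, against 4.98 and 5 kb in wild type. The groups did not overlap. In each of the 7 mutant libraries a peak had its summit 1223 to 1254 bp from the end, with folds of 21.5 to 29.4 and ranks of 1 to 3, and its edges lay 135 to 233 bp and 1620 to 1729 bp from the end. A separate peak followed, with its summit 2396 to 2455 bp from the end and folds of 6.96 to 11.9. In the first wild-type library 1 peak spanned both positions, from 7 to 4990 bp, with its summit at 1232 bp, a fold of 28.7 and rank 1. The strongest Orc1 site at this end thus lay at the same place in those 8 libraries, within 31 bp.

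The second wild-type library had another profile at 1R. Its single peak ran from the last base to 10.3 kb inward, with the summit 400 bp from the end, a fold of 10.5 and rank 88. Of the Kos3 mutants, 1 orc1bah and 1 orc1P179A library had a peak here, with summits 418 and 425 bp from the end and folds of 1.96 and 1.67. The other orc1bah and orc1P179A libraries had none. The wild-type Kos3 summits lay at 429 and 413 bp, with folds of 8.59 and 10.5 and rank 6 in each list.

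At 4L the strongest Orc1 and Kos3 summits of wild type were apart. Orc1 peaks covered 2.79 and 2.78 kb in orc1P179A, 2.34 and 2.82 kb in orc1bah, 2.32 and 2.61 kb in sir2 and 2.94 kb in kos3, against 3.95 and 5 kb in wild type. The strongest Orc1 summit lay 1470 to 1511 bp from the end in the mutants, with folds of 8.33 to 11.6, and at 1482 and 1486 bp in wild type, with folds of 12.4 and 16.5. The positions in mutants and wild type overlapped. In the Kos3 mutants the strongest summits scattered from 157 to 3162 bp, with folds of 1.71 to 2.37. In wild type the strongest Kos3 summit lay at 278 and 285 bp, with folds of 6.78 and 8.34 and ranks 10 and 9. TDEL0D00100 reaches into the window, and the Orc1 and wild-type Kos3 summits lay outside it.

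**Figure D4:**
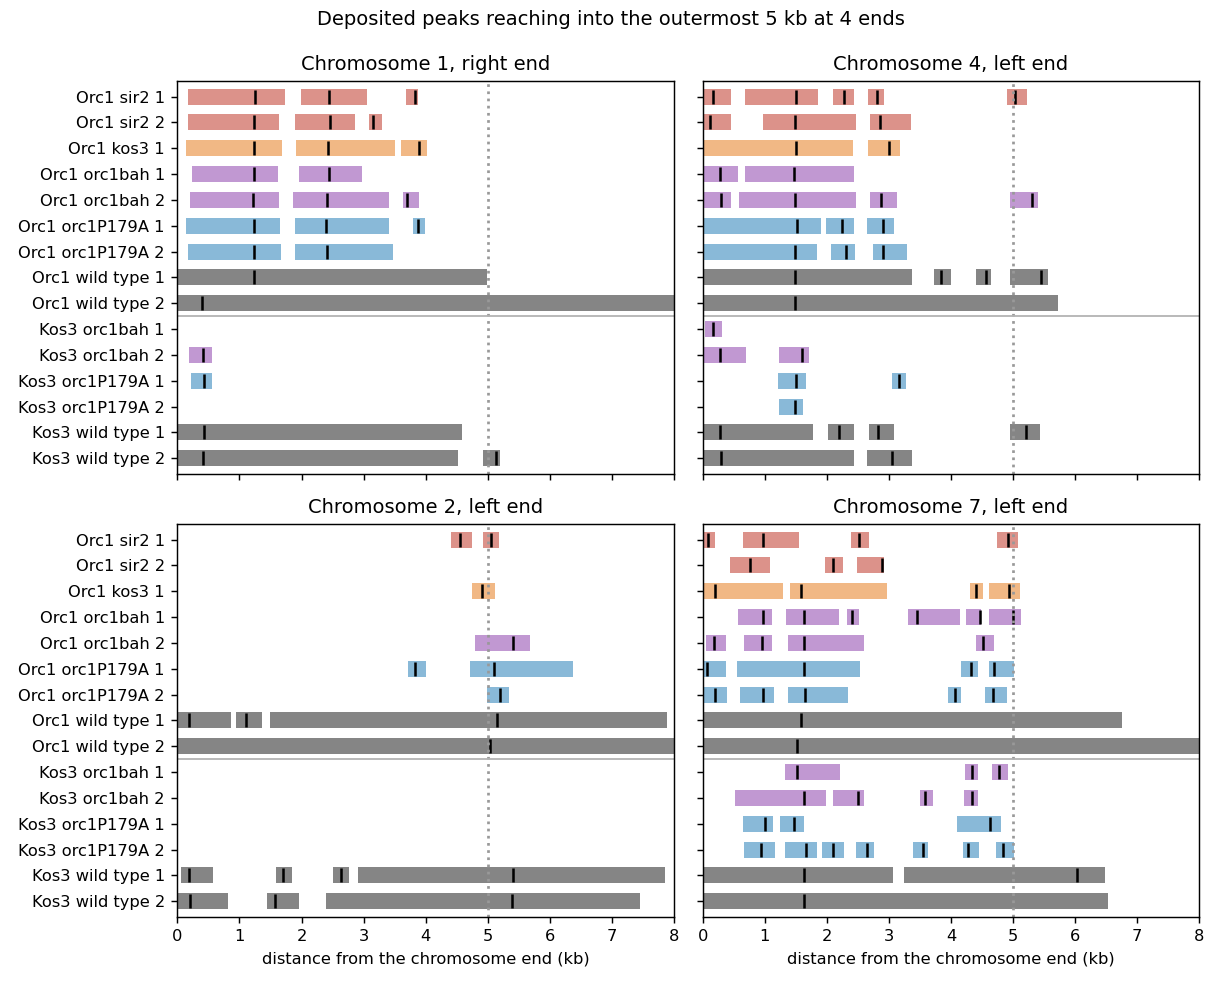
Deposited peaks (bars) and their summits (black ticks) by distance from the end (kb, horizontal; drawn to 8 kb) at 4 ends, with 1 row for each library, Orc1 above and Kos3 below the grey line, and mutants above wild type. At 1R and 4L the mutant Orc1 summits line up with that of the first wild-type library near 1.2 and 1.5 kb, while at 2L nearly all peaks are missing from the mutants and at 7L the wild-type peak is replaced by short ones.

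At 5R the strongest Orc1 peak was again found in every list. Coverage was 2.53 and 2.197 kb in orc1P179A, 2.09 and 2.15 kb in orc1bah, 2.31 and 2.15 kb in sir2 and 2.00 kb in kos3, against 3.58 and 5 kb in wild type. The summit lay 744 to 790 bp from the end in the mutants, with folds of 15.1 to 23.3 and ranks 2 to 10. In wild type it lay at 814 and 817 bp, with folds of 21.8 and 27.0 and ranks 7 and 2. The mutant summits thus all lay nearer the tip than both wild-type summits. Kos3 covered 0.844 and 0.696 kb in orc1P179A and 0.366 and 0.539 kb in orc1bah, against 3.33 and 3.68 kb in wild type. Its strongest summits lay at 1454 to 1842 bp in the mutants and at 626 and 678 bp in wild type. The first gene inward is TDEL0E05770.

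At 4R, beyond TDEL0D06680, both proteins remained in all lists. Orc1 covered 2.45 and 2.43 kb in orc1P179A, 2.28 and 2.28 kb in orc1bah, 2.38 and 2.24 kb in sir2 and 2.46 kb in kos3, against 3.42 and 5 kb in wild type. The inner edge lay 2432 to 2475 bp from the end in all 7 mutants, a span of 43 bp, and 3 of them split the peak into 2. The strongest summit lay either near 0.3 kb (303 to 316 bp, in kos3 and orc1bah) or near 2.1 kb (2074 to 2114 bp, in sir2 and orc1P179A), and at 410 and 413 bp in wild type. Mutant folds were 4.83 to 8.84 and wild-type folds 8.78 and 8.53.

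Kos3 at 4R covered 1.47 and 1.43 kb in orc1P179A and 1.42 and 1.77 kb in orc1bah, against 2.77 and 2.71 kb in wild type. This was the end with the largest remaining share. In the 4 mutant lists the summit lay at 292 to 299 bp, the inner edge of that peak at 1244 to 1275 bp, and the fold of 4.02 to 5.01 ranked 1 to 4. In wild type the folds of 8.49 and 7.56 ranked 7 and 10 in lists of 93 and 100 peaks. The mutant lists are shorter, with 28 to 47 peaks, so the ranks show no change.

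At 6R the outermost annotated features are the tRNA genes TDEL0Ftrna5T and TDEL0Ftrna2V. Orc1 covered 2.46 and 1.42 kb in orc1P179A, 1.38 and 1.39 kb in orc1bah, 1.04 and 1.314 kb in sir2 and 2.06 kb in kos3, against 3.58 and 3.83 kb in wild type. The strongest summit lay at 304 to 345 bp in the mutants, with folds of 3.34 to 6.00, and at 289 and 288 bp in wild type, with folds of 10.1 and 10.98. The peak that held it ended 1126 to 1528 bp from the tip in the mutants. Of the mutant Kos3 lists, 2 had no peak and the others covered 0.297 kb in orc1bah and 0.333 kb in orc1P179A. Wild-type Kos3 covered 3.39 and 3.50 kb, with summits at 290 and 304 bp and folds of 4.56 and 4.82.

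End 1L carried a terminal peak in every list. It began at the first base in all 15 and ended 1020 to 1094 bp inward in the Orc1 mutants and at 1137 and 1149 bp in wild-type Orc1. For Kos3 it ended 381 to 519 bp inward in the mutants and at 1103 and 1122 bp in wild type. The Orc1 folds were 1.35 to 4.55 in the mutants, against 5.54 and 6.05 in wild type. In the first orc1bah list the fold of 4.55 ranked 149 of 236, against rank 147 in both wild-type lists. The second orc1bah list, of the same strain, had a fold of 2.40 for this peak, rank 195 of 248. In the sir2 lists the peak had the lowest fold of all peaks on chromosomes 1 to 7, rank 248 of 248 and 252 of 252, as it did in the second orc1P179A list, rank 223 of 223. Total coverage at 1L was 1.02 to 1.14 kb in the Orc1 mutants, against 1.61 and 4.19 kb in wild type, and TDEL0A00100 lies beyond the window.

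From 2L, strongly bound by both proteins in wild type, nearly all peaks were missing in the mutants. Orc1 covered 0.574 and 0.011 kb in orc1P179A, 0 and 0.211 kb in orc1bah, 0.402 and 0 kb in sir2 and 0.246 kb in kos3, against 4.78 and 5 kb in wild type. In the 5 mutant lists with a peak reaching in, the strongest fold was 2.06 to 3.59 and its rank 166 to 233, with summits 4904 to 5415 bp from the end. In wild type the strongest peak had its summit at 5158 and 5044 bp, in TDEL0B00100, with folds of 21.004 and 27.6 and ranks 8 and 1. The wild-type summits lie just outside the 5 kb limit, whereas the peaks reach across it.

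Kos3 at 2L covered nothing in any of the 4 mutant lists, against 3.12 and 3.93 kb in wild type. The wild-type folds were 17.9 and 20.5, rank 2 in each list, with summits at 5407 and 5394 bp, inward of TDEL0B00100. The Kos3 peak of the second library had its midpoint at 4918.5 bp and was counted, while that of the first lay outside the limit. A separate wild-type peak sat at the tip, with its Kos3 summit at 185 and 208 bp and folds of 3.45 and 5.11, and was missing from every mutant list of both proteins.

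At 7L a long wild-type peak was replaced by a row of short ones. Orc1 covered 3.04 and 2.49 kb in orc1P179A, 3.06 and 2.32 kb in orc1bah, 1.67 and 1.37 kb in sir2 and 3.44 kb in kos3, against 5 and 5 kb in wild type. In the mutants 3 to 6 peaks lay there, with folds of 1.53 to 3.35, and the strongest ranked 170 to 192. In wild type 1 peak spanned the whole window, with summits at 1585 and 1522 bp, folds of 9.68 and 16.2 and ranks 84 and 23. Kos3 covered 1.58 and 2.43 kb in orc1P179A and 1.35 and 2.40 kb in orc1bah, against 4.81 and 5 kb in wild type, where the folds were 8.18 and 10.6. The window holds the tRNA gene TDEL0Gtrna8T.

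At 2R, 5L, 6L and 3R, most of the Orc1 coverage in wild type was in the second library. Mutant Orc1 lists covered at most 0.880 kb at 2R, 0.178 kb at 5L and 0.096 kb at 6L, and nothing at 3R. At 5L and at 6L, 6 of the 7 mutant libraries had no cover. The first wild-type library covered 1.03 kb at 2R, 0.631 kb at 5L, 0.449 kb at 6L and nothing at 3R, and the second covered 4.06 kb, 5 kb, 4.80 kb and 3.96 kb at these ends. Without the second wild-type library, 3R shows no difference, and at the other 3 ends every mutant library still lay below the first.

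Kos3 peaks at the same ends had low folds in wild type too. In the mutants it covered 0.564 to 0.873 kb at 2R and 0 to 0.865 kb at 5L, and nothing at 6L or 3R. In wild type it covered 1.85 and 2.00 kb at 2R, 1.28 and 1.70 kb at 5L, 0.492 and 1.23 kb at 6L, and 1.22 and 1.81 kb at 3R, and the strongest folds at these ends were 2.21 to 3.30. The annotated genes are TDEL0B07690 and TDEL0B07680 at 2R, TDEL0E00100 and TDEL0E00110 at 5L, and TDEL0C07040 at 3R. At 6L they are TDEL0F00100, HSP31, whose S. cerevisiae namesake encodes a chaperone and glyoxalase, and TDEL0F00120.

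The remaining ends were almost empty. At 7R, where TDEL0G05010, TDEL0G05000 and TDEL0G04990 reach into the window, no list had a peak. At 3L, beside TDEL0C00100, the only peak was in the second wild-type Kos3 list, with a fold of 2.10 over 0.200 kb. Without read counts it cannot be told whether reads could be placed at these ends.

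In LRY3211, the wild-type strain with both tags, the strongest Kos3 summits could be set beside the strongest Orc1 summit at 12 ends. At 3 of them, 1L, 1R and 6R, both Kos3 summits lay within 50 bp of the Orc1 summit, with gaps of 2 to 29 bp. The match at 1R held for this Orc1 list only. In the other 8 Orc1 libraries, the first wild-type one included, the strongest summit at 1R lay 1223 to 1254 bp from the end. At 7L the Kos3 summits lay 108 and 113 bp from the Orc1 summit, at 5R 191 and 139 bp, and at 2L 363 and 350 bp. At 4L the gap was 1208 and 1201 bp, and it exceeded 1 kb in both libraries only there and at 5L. Each summit is a single base in a peak several kb long, so the gaps describe these lists and were not tested.

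**Figure D5:**
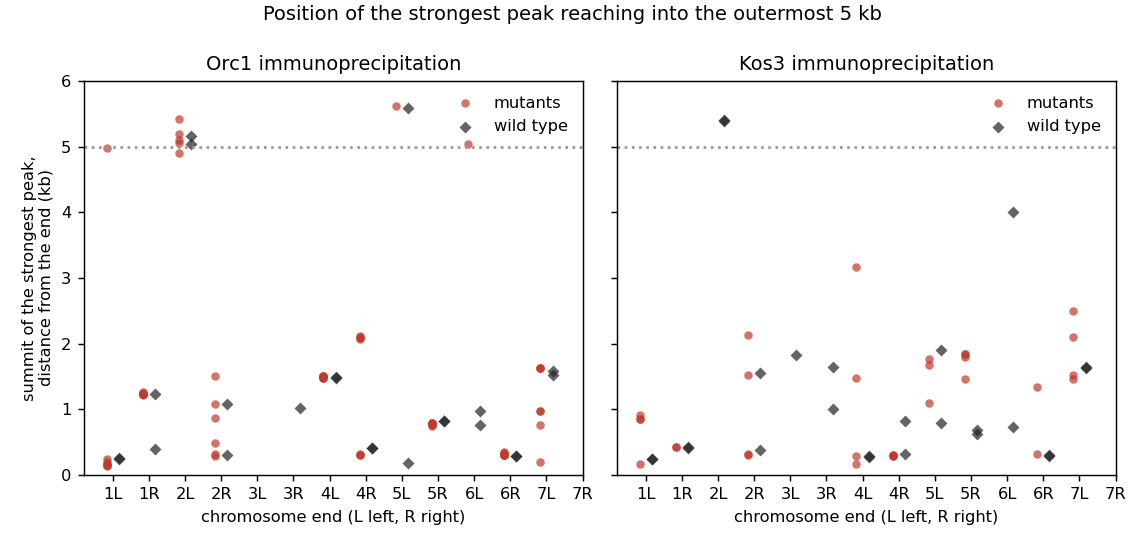
Distance from the end (kb, vertical) of the summit of the strongest peak reaching into each outermost 5 kb window, with 1 point for each library, mutants (circles) left of wild type (diamonds), Orc1 left and Kos3 right. Orc1 summits of mutants and wild type lie together at 4L, 5R and 6R, and Kos3 points are missing from the mutants at 2L, 3R and 6L.

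Kos3 peaks at the tips mostly lay on Orc1 peaks of the same strain (overlap of at least 1 bp). In orc1bah, 10 of 10 peaks of the first Kos3 list overlapped each of the 2 Orc1 lists, and 15 and 14 of 16 of the second did. In orc1P179A it was 12 of 16 in LRY3215 and 13 of 18 in LRY3216, or 75.0% and 72.2%. In wild type it was 28 of 28 and 32 of 33, or 100% and 97.0%. Over all Kos3 peaks on chromosomes 1 to 7 the shares were 60% to 82.1% in orc1bah, 70.3% and 57.4% in orc1P179A, and 86.0% and 90.0% in wild type. Seen from Orc1, 50% to 87.5% of its tip peaks in orc1bah, 45.5% and 58.8% in orc1P179A, and 70.6% and 82.4% in wild type overlapped a Kos3 peak. Over all Orc1 peaks on chromosomes 1 to 7 it was 6.85% to 10.6% in orc1bah, 9.13% and 8.97% in orc1P179A, and 11.3% and 12.04% in wild type. The Orc1 list used for wild type was that of LRY3211, whose peaks covered 79.8% of the windows, against 21.7% to 27.1% in the orc1 mutants, and the part of this in the shares was not tested.

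The tips hold few genes. Of the bases in the 14 windows, 76.9% lie outside annotated genes, against 20.5% over chromosomes 1 to 7. Summits of the tip peaks lay outside genes in 66.7% to 93.8% of cases across the 15 lists. This is near the share of bases, and no preference within the windows can be read from it.

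The median width of the tip peaks was 436 to 1083 bp in the mutant Orc1 lists, against 449 and 2115 bp in wild type, while the other peaks of these lists had medians of 740.5 to 923 bp in the mutants and 854 and 805 bp in wild type. For Kos3 it was 319 to 430 bp at the tips of the mutants, against 487 and 458 bp in wild type, and 304 to 416.5 bp for the other peaks of the mutants, against 294 and 363 bp in wild type. The tip peaks had the larger median in 9 of the 15 lists. The longest tip peak was 2464 bp in the Orc1 mutants, against 6753 and 7832 bp in wild type. Mutant Kos3 lists reached at most 1474 bp, against 4578 and 6523 bp in wild type. Peaks covered the outermost base at 2 or 3 of the 14 ends in each mutant Orc1 list and at 4 and 10 ends in wild type, and at 1 or 2 ends in the mutant Kos3 lists and 3 and 5 in wild type.

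By fold, the tip peaks of Orc1 were weaker than the rest within a list, with a few exceptions. Their median fold was 2.196 to 3.06 in the mutant lists and 2.53 and 3.58 in wild type, while the other peaks of these lists had medians of 6.32 to 7.61 in the mutants and 6.47 and 7.38 in wild type. Yet 2 of the 10 strongest peaks lay at the tips in every mutant list, at 1R and 5R, against 3 and 1 in wild type. The 1 in the second wild-type list leaves out its strongest peak, with a fold of 27.6. That peak spanned the 2L window but had its midpoint at 8466.5 bp. For Kos3 the medians were 1.97 to 2.14 at the tips of the mutants, against 1.96 to 2.49 for the other peaks of those lists, and 2.38 and 2.23 in wild type, against 2.33 and 2.44 for the rest.

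At the 5 kb limit the rule made little difference to weak peaks. The midpoints just inside lay at 4961, 4936 and 4918.5 bp, with folds of 2.18, 2.06 and 20.5, and those just outside at 5006, 5051.5 and 5053.5 bp, with folds of 2.03, 2.28 and 2.39.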

How the data were processed

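Deposited peak lists of 15 libraries were used. Reads were aligned with Bowtie2 2.3.4.1 and peaks called with MACS2 2.2.7.1, per the submitters' processing notes; build and call settings are not given in the sources used here. For each peak the authors deposited a fold enrichment (a linear ratio over background), a −log10 p-value, a −log10 q-value, an integer score and a summit offset. The fold and the −log10 q-value were used, the score was not. The lowest deposited −log10 q was 1.307. Peak names hold the word subsample, and what was subsampled is not stated per the labels. Some peak names give another replicate or input number than the labels or file names, and the labels were followed.

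From these, distances, covered length and ranks were computed with Python 3.11.15, numpy 2.4.6 and pandas 2.3.3, after a test on simulated data. Chromosome 8 was left out by the rule. Peaks touch the first base of 5 of the 7 chromosomes and the last base of 6 at the lengths used. Gene names came from a table of 5174 genes of ASM24337v1. Ends were described in full if a member was in 8 or more of the 15 lists, in all libraries of 1 protein but not of the other, or in both wild-type lists of a protein and none of its mutants; every annotated feature in a window is named. Tests, groups and alternatives (minimum q, window, equal peak numbers, summit or member rules, libraries left out, same input) are those given with the results. Members, lists and measures were chosen with earlier results of these data known.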

Additional observations from a re-analysis of the deposited data

How the results depend on the processing

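Mutant covered length stayed below wild type in every alternative run. In the outermost 2.5 kb the ratios to wild type were 0.468 for sir2, 0.586 for kos3, 0.532 for orc1bah and 0.581 for orc1P179A (Orc1), and 0.279 for orc1bah and 0.285 for orc1P179A (Kos3). Over the outermost 10 kb they were 0.257 for sir2, 0.334 for kos3, 0.274 for orc1bah and 0.316 for orc1P179A (Orc1). The Kos3 ratios over 10 kb were 0.189 in orc1bah and 0.201 in orc1P179A. For Kos3, a −log10 q of at least 10 gave 0.0811 in orc1bah and 0.0648 in orc1P179A, and in orc1P179A a minimum of 5 gave 0.132 and summits inside the window 0.238. The Kos3 to Orc1 ratio in wild type changed direction, to 1.61 with equal peak numbers and 1.01 without the second Orc1 library (0.597 to 1.01 over libraries left out). The difference between mutant and wild-type strains was −39.2 to −16.4 kb over libraries left out; in 5 of these cases it missed 0.05 (exact permutation p = 0.0667 without the kos3 or either orc1P179A strain, 0.167 without a wild-type strain), where fewer regroupings set a higher smallest p. Of 103 covered-length values, 86 stayed within the library spread or on their side of the test.

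No label says that libraries with 1 replicate number share a culture. A replicate block took the geometric mean of the ratios within replicate numbers, with 1 pair only for kos3. The ratios were then 0.323 for sir2, 0.568 for kos3, 0.360 for orc1bah and 0.408 for orc1P179A (Orc1). They were 0.189 and 0.215 for orc1bah and orc1P179A (Kos3), and 0.774 for wild-type Kos3 over Orc1. For Kos3, mean peak numbers with a −log10 q of at least 10 were 3.5 in orc1bah and 2.5 in orc1P179A, against 12.5 in wild type. The lists hold no counts, so whether unequal depth shortens peaks was not tested.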
